A study of Mus musculus with 15 samples.

Results

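The 10 genes described here code for the core of the mTOR and S6 kinase pathway: the kinase Mtor, its complex partners Rptor and Rictor, the small GTPase Rheb, its inhibitors Tsc1 and Tsc2, the translation repressors Eif4ebp1 and Eif4ebp2, and the S6 kinases Rps6kb1 and Rps6kb2. They were picked by symbol from gene tables of 23699 entries, of which 22924 were usable, and all 10 were usable and passed the filter on low values that left 11253 genes to test. The set was put together because Rps6kb2 was higher in ALDH+ than in ALDH- cells while ribosomal protein genes were lower. Differences between ALDH+ and ALDH- cells are therefore given for these genes, and for ribosomal protein genes, as a description with no test.

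mTOR is a protein kinase that works in a pair of complexes. In mTORC1 it is bound to Raptor (Rptor), is switched on by Rheb at the lysosome when amino acids and insulin are present, and phosphorylates the S6 kinases and the 4E-BP proteins, which raises protein synthesis and cell size. In mTORC2 it is bound to Rictor and phosphorylates Akt, whereas the Tsc1 and Tsc2 proteins form the complex that turns Rheb off. In pancreatic beta cells the pathway is known for its part in growth, insulin content and beta cell mass.

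The libraries came from islet cells of mice of mixed 129JC57BL/6 background that carried a red fluorescent reporter (RFP) switched on by cre recombinase. The paper describes RFP as a label of beta cells and cells that had been beta cells. RFP+ cells were stained with aldefluor, a fluorescent substrate of aldehyde dehydrogenase, and sorted into ALDH- and ALDH+ cells. The control mice were heterozygous for FoxO 1, 3 and 4 and also carried cre, so that they were not wild-type at these genes, and the knockout mice are labelled as knockouts of all 3. The study's methods describe Rip-cre controls with unaltered FoxO alleles, and the labels are followed here. There were 3 control ALDH-, 2 control ALDH+, 5 knockout ALDH- and 5 knockout ALDH+ libraries. Cre was driven by Rip, the insulin promoter used for beta cells, in 9 libraries. In the other 6 it was driven by Pdx, a promoter active earlier in pancreas development and in more than beta cells. RFP in those 6 could therefore also mark cells that had never been beta cells. The Pdx-cre libraries were control ALDH- replicate 3, control ALDH+ replicate 2 and knockout replicates 4 and 5 of both sorts. The study's methods give 6 months as the age of the Rip-cre mice. They give 10 to 20 animals for each genotype, without saying how many were pooled in a library. The labels do not say that replicates were separate animals, so that p-values measure the spread between these libraries, which may be partly technical. In bulk RNA of sorted cells, fewer cells of a type and less RNA per cell cannot be told apart.

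The fragments behind the FPKM values (fragments per kilobase of transcript, scaled to the depth of the library) summed to between 7490987 and 10057002 in each library. Aldh1a3 was at 0.490 to 4.09 FPKM in the 8 ALDH- libraries and at 22.1 to 76.9 FPKM in the 7 ALDH+ libraries, so that the sort labels held in all 15. Foxo1 was at 0.0925 to 4.24 FPKM in the 10 knockout libraries and at 12.0 to 20.1 FPKM in the 5 controls. Foxo3 was not lower in the knockout, at 9.78 to 30.6 FPKM against 12.7 to 23.0 FPKM, and Foxo4 did not pass 1.34 FPKM in any library. The tables give 1 value per gene, so that the loss of a floxed exon could not be checked. The summed FPKM of 8 beta cell markers was 82344 to 126294 in ALDH- and 34558 to 98600 in ALDH+ libraries. The summed FPKM of 8 markers of other islet cells, of which Ghrl was at 0 in 9 libraries, was 1456 to 58473 in ALDH- and 761 to 10953 in ALDH+ libraries. By cre driver it was 761 to 2537 in Rip-cre and 1157 to 58473 in Pdx-cre libraries. Gcg, the glucagon gene of alpha cells, was at 35838, 17334 and 9533 FPKM in the Pdx-cre ALDH- libraries and at 5822, 268 and 598 FPKM in the Pdx-cre ALDH+ libraries. In the Rip-cre libraries alone, where Gcg was at 154 to 1016 FPKM, the log2 difference of Rps6kb2 between ALDH+ and ALDH- cells was 1.63 (SE 0.27) and that of Rps6kb1 was 0.70 (SE 0.22). The sum of 9 acinar and duct markers was 108 to 808 in ALDH- and 158 to 1540 in ALDH+ libraries, with Cpb1 and Sox9 at 0 in 12 libraries and Pnlip in 11. In Rip-cre libraries most of this sum was Spp1, at 100 to 339 FPKM, and Ctrb1 did not pass 1.58 FPKM. In Pdx-cre libraries Spp1 was at 134 to 697 FPKM and Ctrb1 at 0.140 to 1223 FPKM. The sum of 9 immune, endothelial and stromal markers was 20.1 to 149 in ALDH- and 20.05 to 72.2 in ALDH+ libraries, nearly all of it Cd68, with Ptprc at 0 in 13 libraries and Kdr and Cdh5 in 14. The part of these cell types in the results below was not tested.

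The S6 kinases are made from separate genes of related sequence, and so are the 4E-BP proteins, so it was first asked whether reads of one could be counted for its partner. In the coding sequences of their longest GENCODE M21 protein-coding transcripts, 1575 bases for Rps6kb1 and 1455 for Rps6kb2, the longest identical stretch was 14 bases. It was also 14 bases over the whole transcripts. For Eif4ebp1 and Eif4ebp2, with coding sequences of 351 and 360 bases, it was again 14 bases. The stretches are shown, in capitals, inside their flanking coding bases as the longest runs that the partners share without a mismatch. An alignment that allows mismatches could reach past them, so that they do not bound how much of a read the partners could share. Counting of reads for the partner gene was not tested. On GRCm38, the Rps6kb1 window lies at chr11:86519898-86519927 and the Rps6kb2 window at chr19:4161074-4161103, both on the minus strand in exon 5 of the transcript. The Eif4ebp1 window lies at chr8:27275086-27275108 on the plus strand and the Eif4ebp2 window at chr10:61433800-61433822 on the minus strand, both in exon 3, at the end of the coding sequence.
Rps6kb1: gaggaaagCTCTACCTCATCCTcgagtatc
Rps6kb2: gtggcaaaCTCTACCTCATCCTggagtgcc
Eif4ebp1: agtcacaaTTTGAGATGGACATt
Eif4ebp2: aggctcagTTTGAGATGGACATc

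In the deposited tables, whose build is mm9, Rps6kb2 spans chr19:4156977-4163245 and Rps6kb1 chr11:86312513-86358309, and neither overlaps another listed gene. Mtor overlaps Angptl7, Rptor overlaps A430071A18Rik and Tsc2 overlaps Pkd1, and the sources used here do not say whether counting used strand. Angptl7 was at 0.663 to 7.42 FPKM, A430071A18Rik at 0 to 2.37 FPKM and Pkd1 at 2.57 to 10.8 FPKM. GENCODE M21 lists 12 transcripts of Rps6kb2, of which 3 are protein-coding, 4 are targets of nonsense-mediated decay, 3 retain an intron and 2 are other processed transcripts. The deposited value is 1 per gene, so that these forms cannot be told apart. RefSeq promoters (GRCm38.p6, from 250 bases before to 50 after the transcription start) were at hand for 8 of the 10 genes, the exceptions being Rps6kb2 and Eif4ebp1. The FOXO motif TGTTTAC, searched on both strands, was in 0 of the 8 and in 3.65% of 32851 promoters. The E-box CACGTG, which reads the same on both strands, was in 1 of the 8, that of Rheb, and in 7.15% of all promoters.

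Rps6kb2, which codes for S6 kinase 2, was about 3 times as high in ALDH+ as in ALDH- cells. It was at 8.54, 6.08 and 8.09 FPKM in control ALDH- libraries and at 28.2 and 23.7 FPKM in control ALDH+ libraries. In the knockout it was at 7.98, 5.43, 4.43, 3.63 and 3.63 FPKM in ALDH- libraries and at 14.3, 14.1, 24.8, 15.3 and 14.5 FPKM in ALDH+ libraries. Every ALDH+ library lay above every ALDH- library, in each genotype and with each cre driver. The fitted log2 difference, on the scale of log2(rescaled FPKM + 1) and averaged over genotypes, was 1.62 (SE 0.19), a 3.08-fold difference on that scale. It was 1.67 (SE 0.32) in controls and 1.58 (SE 0.22) in knockouts. Among the 11253 genes it ranked 38 from the highest. Rps6kb2 was the least deeply sequenced of the 10 genes, with 47 to 343 fragments per library and a counting error of 5.40% to 14.6%, which covers counting error only.

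Rps6kb1, which codes for S6 kinase 1, was also higher in ALDH+ cells, with a narrow gap between the groups. It was at 7.33, 8.27 and 6.48 FPKM in control ALDH- and 16.1 and 15.2 FPKM in control ALDH+ libraries. In the knockout it was at 10.6, 12.3, 13.3, 5.99 and 10.9 FPKM in ALDH- and 14.6, 13.4, 22.5, 16.5 and 16.1 FPKM in ALDH+ libraries. The ALDH+ and ALDH- libraries did not overlap, but the lowest ALDH+ and the highest ALDH- value, both from the knockout, were 13.4 and 13.3 FPKM. The log2 difference was 0.82 (SE 0.18) on average, 1.00 (SE 0.30) in controls and 0.63 (SE 0.21) in knockouts. The S6 kinase genes were the 2 of the 10 whose ALDH+ libraries all lay above the ALDH- libraries, a pattern that 0.418% of all genes tested showed. Since the set was chosen on this comparison, nothing is read from that count.

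**Figure D1:**
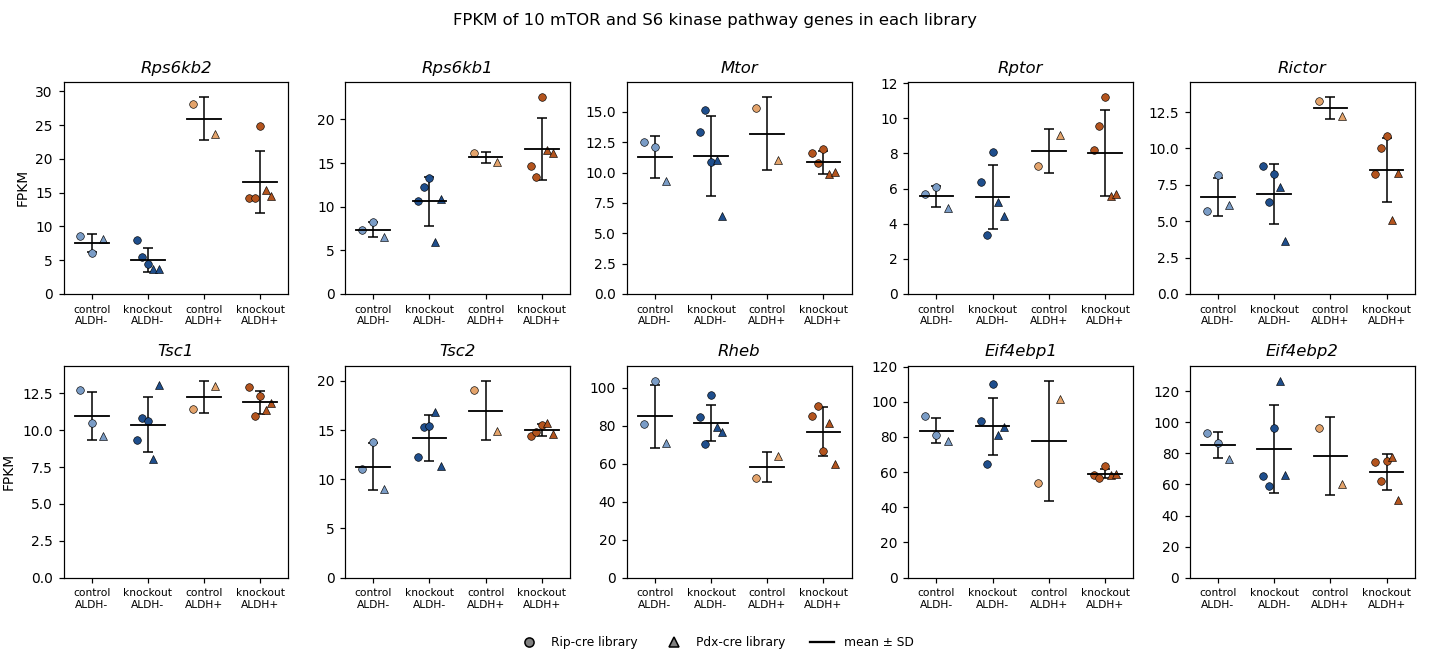
FPKM of each of the 10 genes (y axis, from 0) in the 4 groups of libraries (x axis), 1 point per library, circles for Rip-cre and triangles for Pdx-cre, with the mean and SD of each group. The Rps6kb2 points of ALDH+ cells lie between 14.1 and 28.2 FPKM, above all ALDH- points, which end at 8.54 FPKM, whereas the points of Mtor, Tsc1, Tsc2, Rheb and both Eif4ebp genes overlap between ALDH- and ALDH+ cells.

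Mtor, the catalytic subunit shared by both complexes, differed little between the sorts. It was at 12.5, 12.1 and 9.32 FPKM in control ALDH- and 15.3 and 11.1 FPKM in control ALDH+ libraries. In the knockout it was at 13.3, 15.2, 10.8, 11.03 and 6.42 FPKM in ALDH- and 11.6, 10.7, 11.9, 9.88 and 10.04 FPKM in ALDH+ libraries. The log2 difference was 0.11 (SE 0.15), and with the trend along transcript length removed it was -0.14 (SE 0.14).

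The partner subunits of Mtor were somewhat higher in ALDH+ cells, with overlap between the sorts. Rptor, the substrate-binding subunit of mTORC1, was at 5.696, 6.08 and 4.87 FPKM in control ALDH- and 7.26 and 9.05 FPKM in control ALDH+ libraries. It was at 6.39, 3.35, 8.08, 5.22 and 4.42 FPKM in knockout ALDH- and 8.18, 9.59, 11.2, 5.56 and 5.68 FPKM in knockout ALDH+ libraries. In knockout ALDH+ cells all Rip-cre values thus lay above the Pdx-cre values, but the share of all genes with this pattern was not counted. In control ALDH+ cells the order was reversed, at 7.26 FPKM with Rip-cre and 9.05 FPKM with Pdx-cre. Over all libraries, Pdx-cre minus Rip-cre was -0.25 (SE 0.19), which did not pass the limma test (adjusted p = 0.438). The log2 difference between the sorts was 0.50 (SE 0.20).

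Rictor, the defining subunit of mTORC2, was at 5.72, 8.19 and 6.09 FPKM in control ALDH- and 13.3 and 12.2 FPKM in control ALDH+ libraries. It was at 8.78, 6.32, 8.27, 7.37 and 3.60 FPKM in knockout ALDH- and 8.26, 10.02, 10.9, 5.09 and 8.31 FPKM in knockout ALDH+ libraries. The sorts were apart in controls and overlapped in knockouts, with log2 differences of 0.89 (SE 0.31) and 0.30 (SE 0.21). The controls were only 2 ALDH+ against 3 ALDH- libraries, where the knockouts were 5 against 5, so that these patterns are not alike. The share of all genes apart in controls was not counted. The difference between these values was -0.59 (SE 0.38, 95% interval -1.32 to 0.15), and it did not pass the limma test (unadjusted p = 0.138, adjusted p = 0.998). With the length trend removed it was -0.39 (SE 0.37).

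Over all libraries Tsc1, Tsc2 and Rheb overlapped between ALDH- and ALDH+ cells. Tsc1, the stabilising subunit of the complex, ranged from 8.03 to 13.1 FPKM over the ALDH- and from 10.96 to 13.001 FPKM over the ALDH+ libraries, with a log2 difference of 0.17 (SE 0.15). Tsc2, the subunit that acts on Rheb, ranged from 9.06 to 16.8 FPKM with a median of 12.98 FPKM in ALDH- and from 14.4 to 19.1 FPKM with a median of 14.9 FPKM in ALDH+ libraries, a log2 difference of 0.32 (SE 0.13). Rheb, the GTPase that switches mTORC1 on, was lower in ALDH+ cells in the controls, at 52.6 and 64.1 FPKM against 80.7, 103 and 70.7 FPKM. In the knockout Rheb was at 84.7, 70.3, 96.1, 79.5 and 77.0 FPKM in ALDH- and 85.3, 90.3, 66.8, 81.6 and 59.9 FPKM in ALDH+ libraries, which overlapped. Its log2 differences were -0.54 (SE 0.20) in controls and -0.08 (SE 0.14) in knockouts, and -0.31 (SE 0.12) on average.

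The repressors of cap-dependent translation were the most abundant of the 10 genes together with Rheb. Eif4ebp1 was at 91.8, 81.2 and 77.8 FPKM in control ALDH- and 53.6 and 102 FPKM in control ALDH+ libraries, so that the lone Rip-cre and the lone Pdx-cre control ALDH+ library lay on either side of the ALDH- values. In knockout ALDH- libraries Eif4ebp1 was at 88.8, 64.6, 110, 81.1 and 85.6 FPKM. In knockout ALDH+ libraries it was at 58.2, 56.7, 63.3, 58.3 and 59.1 FPKM. Every ALDH+ value lay below every ALDH- value there, but the nearest, 63.3 and 64.6 FPKM, had counting errors of 4.74% and 4.41%. The share of all genes with this pattern in knockouts was not counted. Eif4ebp1 had a log2 difference of -0.50 (SE 0.16) in knockouts and -0.22 (SE 0.24) in controls. Averaged over genotypes it was -0.36 (SE 0.14), and from -0.59 to -0.11 with single libraries left out. Eif4ebp2 ranged from 58.9 to 126 FPKM with a median of 81.4 FPKM in ALDH- and from 49.8 to 96.0 FPKM with a median of 74.6 FPKM in ALDH+ libraries, a log2 difference of -0.20 (SE 0.17), which was 0.04 (SE 0.18) in the Rip-cre libraries alone.

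Since FPKM is scaled to transcript length, the levels of the 10 genes could be set in order within a library. In ALDH- cells Eif4ebp1 (mean 85.1 FPKM), Eif4ebp2 (83.7 FPKM) and Rheb (82.8 FPKM) led and were not apart beyond their spread. Below them came Tsc2, Mtor, Tsc1, Rps6kb1, Rictor, Rps6kb2 and Rptor, from 13.1 FPKM to 5.51 FPKM. Each of these stood above the next in only 5 of the 8 libraries, except Rps6kb1, which was above Rictor in 7. In ALDH+ cells the same 3 genes led, at 64.4 to 71.5 FPKM on average, and stood above the next gene in all 7 libraries. Rps6kb2 came next, in place 4 at 19.3 FPKM (SD 6.05, n = 7) where it had been in place 9 at 5.98 FPKM (SD 2.03, n = 8) in ALDH- cells. Rps6kb1 followed at 16.3 FPKM, and Rps6kb2 was above it in 4 of the 7 libraries, so that these neighbours were not apart. Tsc2, Tsc1, Mtor, Rictor and Rptor followed in that order, with Tsc2 above Tsc1 in all 7 libraries.

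**Figure D2:**
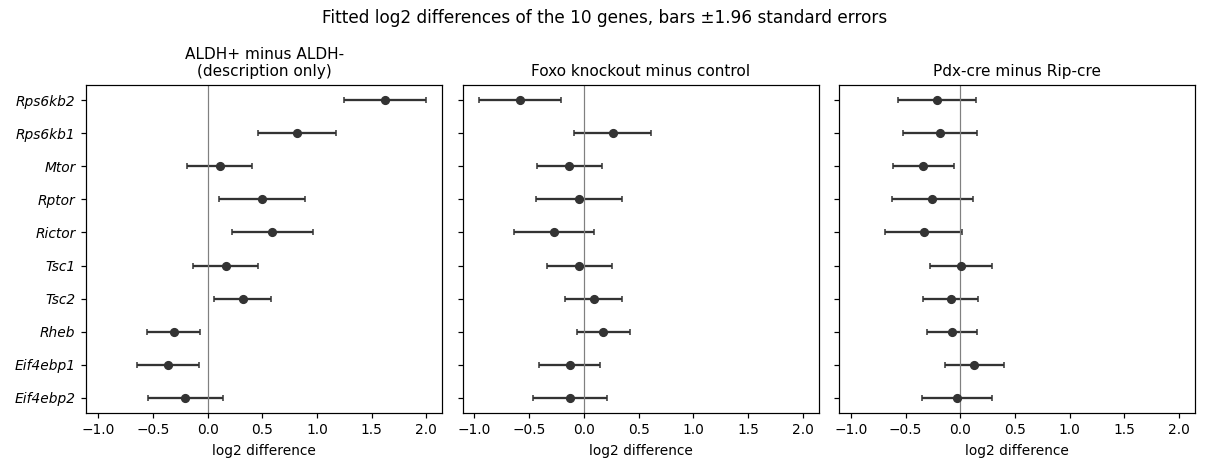
Fitted log2 differences of the 10 genes (x axis, on the scale of log2(rescaled FPKM + 1)) for ALDH+ minus ALDH-, Foxo knockout minus control and Pdx-cre minus Rip-cre, with bars for 95% intervals. Rps6kb2 stands at 1.62 in the first panel, which is a description only, and at -0.58 in the second, and Mtor at -0.34 in the third.

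The rule paired the S6 kinase genes with the ribosomal protein genes, whose products make up the ribosome and include S6, the substrate that names the kinases. Of 84 cytosolic ribosomal protein genes 81 passed the filter, and all 81 had a lower fitted value in ALDH+ cells, with a median log2 difference of -0.78 against -0.02 over all genes tested. The median was -1.06 in controls and -0.51 in knockouts. The difference between genotypes passed an adjusted limma p of 0.05 for 0 of the 81 genes and an unadjusted p of 0.05 for 16, all less negative in knockouts. Of all 11253 genes 4.23% passed that unadjusted p, 299 with a positive and 177 with a negative value. In single libraries the median level of these genes on the log2(rescaled FPKM + 1) scale ran from 7.11 to 7.94 in ALDH- and from 6.20 to 7.23 in ALDH+ libraries, so that the sorts overlapped. The lowest medians were 6.20 in knockout ALDH+ replicate 3 and 6.25 in control ALDH+ replicate 1. These libraries had the highest Rps6kb2 values, 24.8 and 28.2 FPKM. Control ALDH+ replicate 2, at 23.7 FPKM of Rps6kb2, had a median of 6.98. Knockout ALDH+ replicates 1 and 2 had medians of 6.99 and 6.97 with Rps6kb2 at only 14.3 and 14.1 FPKM. The rule named both sets of genes, so that nothing is read from this order. Between cre drivers, a comparison that the choice of genes did not use, 29 of the 81 were higher and 0 lower with Pdx-cre, where 5.68% of all genes were higher, and their median log2 difference was 0.46, against 0.20 over the genes of the shortest length group, defined with the trend along length.

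**Figure D3:**
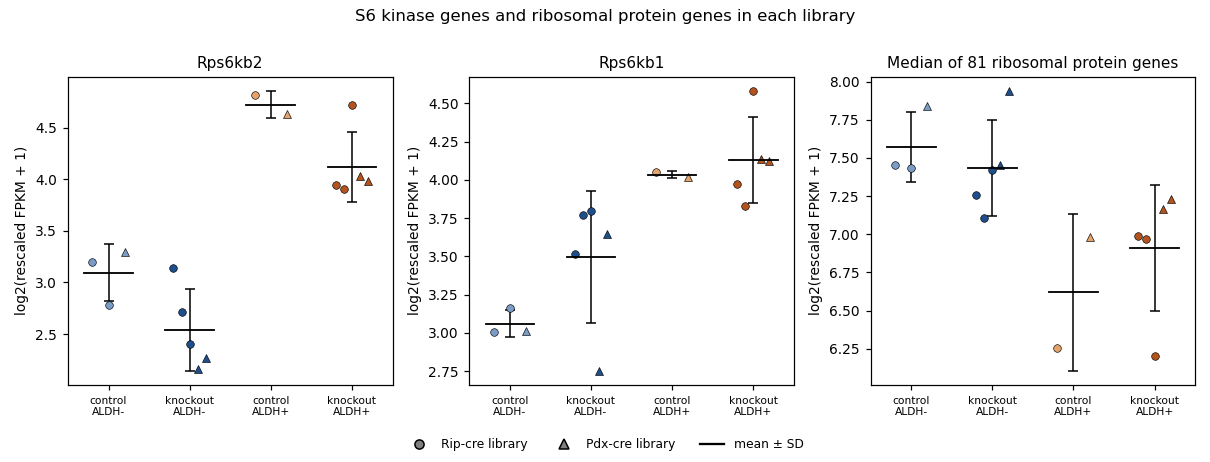
Level on the log2(rescaled FPKM + 1) scale (y axis, not from 0) of Rps6kb2, of Rps6kb1 and of the median of 81 ribosomal protein genes in the 4 groups (x axis), 1 point per library, circles for Rip-cre and triangles for Pdx-cre, with group mean and SD. Rps6kb2 is higher in all ALDH+ libraries, while the ribosomal protein median is lowest, at 6.20 and 6.25, in one knockout and one control ALDH+ library.

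The ALDH difference of a gene moved with the length of its transcript. The genes were divided into 5 length groups of equal size, by relative length read from the fragments behind each FPKM, and the median log2 difference between ALDH+ and ALDH- cells was -0.31, -0.11, -0.03, 0.04 and 0.17 from the shortest to the longest group. Mtor, Rptor, Rictor, Tsc1, Tsc2 and Rps6kb1 were in the longest group, Rps6kb2, Eif4ebp2 and Rheb in the next to shortest and Eif4ebp1 in the shortest. Rps6kb2 thus had a difference of 1.62 in a length group whose median was -0.11. With the length trend of each library removed, Rps6kb2 had a log2 difference of 1.74 (SE 0.20), Rps6kb1 0.69 (SE 0.18), Rictor 0.32 (SE 0.18) and Rptor 0.29 (SE 0.21), while Tsc1 went to -0.06 (SE 0.17) and Tsc2 to 0.16 (SE 0.13). The lower genes came nearer to 0, with Eif4ebp1 at -0.11 (SE 0.13), Eif4ebp2 at -0.13 (SE 0.17) and Rheb at -0.20 (SE 0.11). The median of the ribosomal protein genes went to -0.46. Other comparisons moved with length too: from the shortest to the longest group the medians went from 0.20 to -0.16 for Pdx-cre minus Rip-cre, and from 0.25 to -0.13 for the ALDH difference in knockouts minus that in controls.

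**Figure D4:**
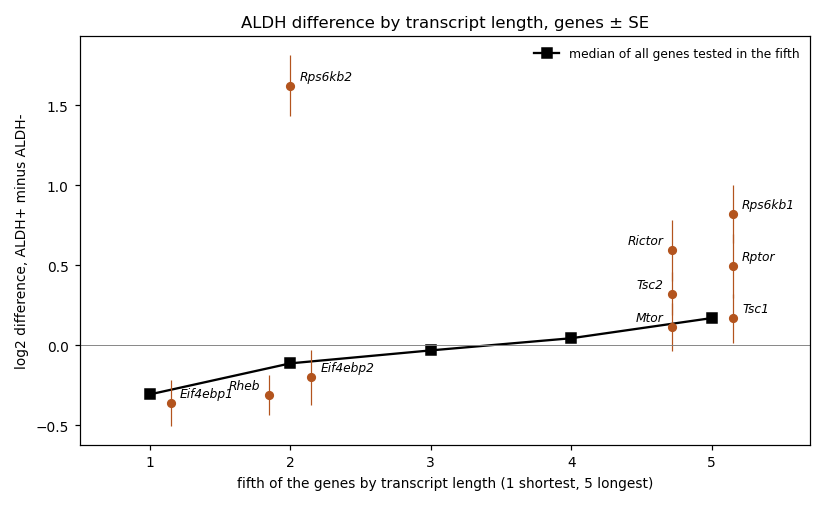
Log2 difference between ALDH+ and ALDH- cells (y axis) against length group (x axis, 1 the shortest transcripts and 5 the longest). Squares are medians of all genes tested in a length group, from -0.31 to 0.17, and round points are the 10 genes with their standard errors, shifted sideways to keep them apart. Rps6kb2, at 1.62 in group 2, stands far above its square, and the genes of group 5 lie between 0.11 and 0.82.

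Whether the genes depended on Foxo was tested as knockout minus control, averaged over ALDH- and ALDH+ cells. Of the 10 genes 0 passed an adjusted p of 0.05 in the limma fit, where 0.116% of all genes did, and 1 of the 10, Rps6kb2, passed an unadjusted p of 0.05, where 7.71% of all genes did. Rps6kb2 was lower in the knockout by a log2 difference of -0.58 (SE 0.19, 95% interval -0.96 to -0.21), with an unadjusted p of 0.00787 and an adjusted p of 0.409. Its control and knockout libraries overlapped in each sort: 6.08 to 8.54 against 3.63 to 7.98 FPKM in ALDH- cells, and 23.7 and 28.2 against 14.1 to 24.8 FPKM in ALDH+ cells. Rps6kb1 had a value of opposite sign, 0.26 (SE 0.18, adjusted p = 0.832). Rictor was at -0.28 (SE 0.19, adjusted p = 0.826) and Mtor at -0.13 (SE 0.15, adjusted p = 0.917). The other 6 lay between -0.13 and 0.18, with adjusted p-values of 0.834 to 0.984.

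The ratio of partner genes within a library needs no scaling between libraries, and 4 such ratios were compared, each between genotypes and between cre drivers. The log2 ratio of Rps6kb2 to Rps6kb1 (of FPKM + 1) was 0.20, -0.39 and 0.28 in control ALDH- libraries and -0.37, -1.05, -1.39, -0.59 and -1.37 in knockout ALDH- libraries. It was 0.77 and 0.61 in control ALDH+ libraries and -0.03, 0.07, 0.14, -0.10 and -0.14 in knockout ALDH+ libraries. The genotypes were apart in ALDH+ cells and met at -0.39 and -0.37 in ALDH- cells. Stratified by sort and cre driver, the ratio was lower in the knockout by a log2 difference of -0.89 (exact permutation test over 360 arrangements, two-sided p = 0.00556, adjusted p = 0.0445 over 8 tests, smallest possible p = 0.00278). Leaving out each of the 15 libraries in turn gave differences of -0.98 to -0.76 and adjusted exact p-values of 0.037 to 0.178. The call was kept in 1 of these, without knockout ALDH- replicate 1, and lost in the other 14. Each omission also left fewer arrangements. With the Rip-cre libraries alone the difference was -0.78 (exact p = 0.05, adjusted p = 0.1). Because the genes were chosen with results on these libraries known, the p is not independent evidence. Genotype labels were also rearranged in each sort separately, as if ALDH- and ALDH+ libraries of equal number were unrelated. If such libraries share animals, the p may be too small.

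The other ratios did not pass. Knockout minus control was -0.02 for Eif4ebp1 to Eif4ebp2 (exact permutation p = 0.942), 0.24 for Rptor to Rictor (exact permutation p = 0.214) and -0.15 for Tsc1 to Tsc2 (exact permutation p = 0.617). Between cre drivers the ratio of Rps6kb2 to Rps6kb1 did not move (difference 0.00 after rounding, exact permutation p = 1.0), and the remaining ratios differed by 0.11 to 0.36 (exact permutation p of 0.398 to 0.617). The widest spread between replicates was that of Eif4ebp1 to Eif4ebp2 in control ALDH+ cells, at -0.83 and 0.74.

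**Figure D5:**
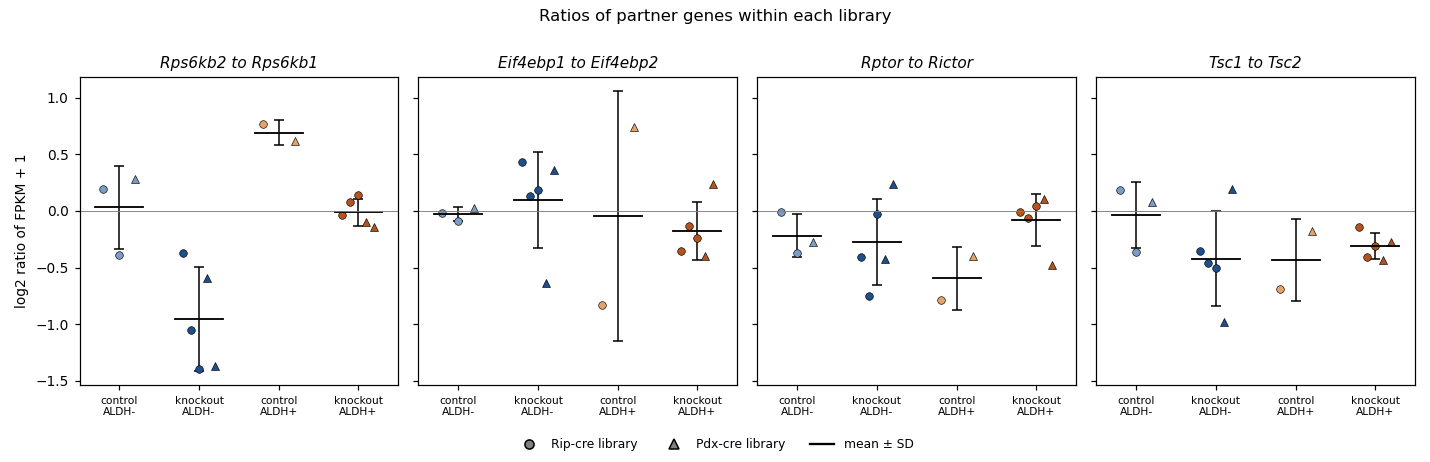
Log2 ratio of FPKM + 1 of 4 pairs of partner genes (y axis) in the 4 groups (x axis), 1 point per library, circles for Rip-cre and triangles for Pdx-cre, with group mean and SD. For Rps6kb2 to Rps6kb1 the knockout means, -0.96 and -0.01, lie below the control means, 0.03 and 0.69, of the same sort.

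Between cre drivers, 0 of the 10 genes passed an adjusted p of 0.05 in the limma fit, where 9.73% of all genes did, and 1 of the 10, Mtor, passed an unadjusted p of 0.05, where 25.7% of all genes did. Mtor ranged from 10.7 to 15.3 FPKM, median 12.1, in the 9 Rip-cre libraries and from 6.42 to 11.1 FPKM, median 9.96, in the 6 Pdx-cre libraries. The log2 difference was -0.34 (SE 0.14, unadjusted p = 0.0321, adjusted p = 0.151). Rictor differed by -0.34 (SE 0.18, adjusted p = 0.257), Rps6kb2 by -0.21 (SE 0.18, adjusted p = 0.509) and Rps6kb1 by -0.19 (SE 0.17, adjusted p = 0.541). The other 6 lay between -0.25 and 0.13. With the length trend removed, Mtor differed by -0.14 (SE 0.13, adjusted p = 0.595) and Rictor by -0.12 (SE 0.18, adjusted p = 0.734). Markers of other islet cells, given above, were also higher in some Pdx-cre libraries. The sum of the acinar and duct markers was 108 to 343 in Rip-cre and 141 to 1540 in Pdx-cre libraries. Of the 8 beta cell markers, 4 were lower in every Pdx-cre than in every Rip-cre library. Slc2a2, the glucose transporter of beta cells, was at 8.61 to 24.6 FPKM with Pdx-cre and 99.95 to 227 FPKM with Rip-cre, and the others were Ucn3, Slc30a8 and Nkx6-1. The share of all genes with no overlap between cre drivers was not counted, so that nothing is read from this count. The sum of the immune, endothelial and stromal markers was 20.05 to 38.6 in Rip-cre and 34.4 to 149 in Pdx-cre libraries. The part of these cells was not tested.

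It was then tested whether the ALDH difference itself depended on genotype or on cre driver. By limma 0 of 11253 genes passed an adjusted p of 0.05 in either test, and 4.23% and 4.54% passed an unadjusted p of 0.05, among them 0 of the 10 genes. For Rps6kb2 the ALDH difference in knockouts minus that in controls was -0.09 (SE 0.39, 95% interval -0.85 to 0.66, adjusted p = 0.998), and that with Pdx-cre minus that with Rip-cre was 0.06 (SE 0.38, 95% interval -0.69 to 0.80, adjusted p = 0.994). For Rps6kb1 they were -0.37 (SE 0.36) and 0.34 (SE 0.35). Over the 10 genes the values by genotype ran from -0.59 for Rictor to 0.46 for Rheb, and those by cre driver from -0.51 for Eif4ebp2 to 0.34 for Rps6kb1. The intervals leave differences of more than 0.6 possible in either direction for Rps6kb2.

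The wider pathway was read through 5 lists of 83 further genes, of which 76 were tested: other mTOR complex subunits and assembly factors (6 tested), inputs to TSC and Rheb (17), the lysosomal machinery of amino acid sensing (26), effectors of both complexes and of S6 kinase (20), and the RSK and related kinases (7). Between ALDH+ and ALDH- cells 0 of the 76 were called higher, where 2.22% of all genes were, and 3 were called lower, where 3.77% were. Their median log2 difference was -0.07, against -0.02 over all genes. Lamtor2, a subunit of the Ragulator that holds the Rag GTPases at the lysosome, ranged from 46.6 to 115 FPKM, median 75.5, in ALDH- and from 14.6 to 98.5 FPKM, median 46.3, in ALDH+ libraries, a log2 difference of -0.99 (SE 0.25, adjusted p = 0.0277). Ddit4, which codes for the stress-induced inhibitor REDD1 that acts through the TSC complex, ranged from 4.61 to 12.8 FPKM, median 7.07, in ALDH- and from 2.00 to 7.24 FPKM, median 4.18, in ALDH+ libraries, a log2 difference of -0.86 (SE 0.23, adjusted p = 0.0345). Akt2, an insulin-signalling kinase that inhibits the TSC complex, ranged from 20.9 to 32.3 FPKM, median 24.4, in ALDH- and from 12.2 to 24.8 FPKM, median 19.9, in ALDH+ libraries, a log2 difference of -0.50 (SE 0.14, adjusted p = 0.0457). All 3 overlapped between the sorts. The calls stood in 16, 9 and 5 of 24 alternatives, so that those of Ddit4 and Akt2 were lost in most of them. The adjusted limma p reached 0.335 for Lamtor2, 0.253 for Ddit4 and 0.245 for Akt2.

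The count of 3 rested on single libraries. It was 0 without control ALDH- replicate 1, without control ALDH- replicate 2 or without control ALDH+ replicate 1, and 1 without control ALDH- replicate 3, without knockout ALDH- replicate 5 or without knockout ALDH+ replicate 1, 2 or 4. It was 5 without knockout ALDH- replicate 4. With the length trend removed, or without the cre driver in the model, it was 0. The count over all genes was 674, or 5.99%, and without control ALDH+ replicate 1 it was 3.

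By genotype 0 of the 76 genes were called by limma, where 0.116% of all genes were, and 8 passed an unadjusted p of 0.05, 5 higher and 3 lower, where 7.71% of all genes did. By cre driver 2 were higher and 3 lower with Pdx-cre, where 5.68% and 4.05% of all genes were. Prkaa1, the catalytic alpha subunit of the energy sensor AMPK, which opposes mTORC1, ranged from 31.2 to 44.3 FPKM in Rip-cre and from 18.1 to 29.2 FPKM in Pdx-cre libraries, so that the drivers did not overlap, with a log2 difference of -0.55 (SE 0.12, adjusted p = 0.0104). Prkag2, a gamma subunit of AMPK that binds nucleotides, ranged from 5.72 to 11.6 FPKM in Rip-cre and from 3.12 to 6.70 FPKM in Pdx-cre libraries, with a log2 difference of -0.75 (SE 0.18, adjusted p = 0.0136). Both passed in all 20 alternatives. Rps6ka2, a kinase of the RSK family, differed by -0.55 (SE 0.17, adjusted p = 0.0462), Lamtor3, another Ragulator subunit, by 0.63 (SE 0.18, adjusted p = 0.0317) and Eif4a1, the helicase of the cap-binding complex, by 0.57 (SE 0.15, adjusted p = 0.0266). These passed in 4, 8 and 13 of the 20 alternatives.

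Last, the genes whose pattern over the 15 libraries was nearest to that of Rps6kb2 were found by the root mean square difference of mean-centred log2 values. They were Gm16907 (0.446), Ttc14 (0.452), Fnbp4 (0.454), Kcnq1ot1 (0.458) and Pnn (0.463), where the SD of Rps6kb2 over the libraries was 0.866. Kcnq1ot1 is a long noncoding RNA that silences imprinted genes. Kcnq1ot1 was at 0.562 to 3.29 FPKM in ALDH- and 2.47 to 6.53 FPKM in ALDH+ libraries, which overlapped. Pnn codes for a protein of nuclear speckles and cell junctions. It was at 14.8 to 30.01 FPKM in ALDH- and 34.2 to 73.7 FPKM in ALDH+ libraries, which did not overlap. These genes were picked for nearness to Rps6kb2, so that nothing is read from their differences between the sorts. Within the 10 genes the nearest to Rps6kb2 was Rps6kb1, at 0.630. Rptor and Rictor were 0.299 apart, where their own SDs were 0.376 and 0.405.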

How the data were processed

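RNA of FACS-sorted islet cells was made into poly-A selected TruSeq libraries. The authors deposited 1 gene table per library with FPKM values and their confidence bounds. The submitters' processing notes name bcl2fastq 1.8.4, TopHat2 2.0.4 and mm9. The quantifier's version and the annotation are not given in the sources used here. Symbols listed more than once (248) and lines with a failed or too deep estimate (63) were left out. Fragments per value came from the width of the confidence interval, taken as a Poisson error, and came out whole (tolerance 0.02) for 66.2% of those below 500, so that FPKM, not counts, were tested. Libraries were put on a common scale by TMM without weights, trimming 30% of M and 5% of A, and log2(FPKM + 1) was fitted with limma 3.58.1 (R 4.3.3, trended prior) on 4 groups plus cre driver for genes with a mean of at least 1, with Benjamini-Hochberg adjustment and a threshold of 0.05. The study's methods name a negative binomial test of counts, which FPKM values do not allow. Partner ratios were tested by exact permutation, two-sided. The fit was tested on simulated data. Alternatives were another pseudocount, filter, scaling and model, a length correction, Rip-cre libraries alone, a replicate block and leaving out each library. The members, lists and tests were chosen with earlier results of these data known. Named pathway genes are the up to 5 in each direction with the smallest p among those past the threshold.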

Additional observations from a re-analysis of the deposited data

Results flagged for a closer look

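Of 28 sets of 5 knockout libraries examined (10 genes and 4 ratios in each of the sorts), 3 held a library far from the others by Dixon's criterion, which chance meets in about 1 of 20 sets. Rps6kb2 was at 24.8413 FPKM in knockout ALDH+ replicate 3, where the other 4 libraries were at 14.1 to 15.3 FPKM. The gap was 0.888 of the range, against a critical value of 0.71. The same library had the lowest median of the ribosomal protein genes and the highest Rps6kb1 value. Without it the log2 difference of Rps6kb2 between ALDH+ and ALDH- cells was 1.55 (SE 0.18), against 1.62 with all libraries. The log2 ratio of Eif4ebp1 to Eif4ebp2 was -0.6333 in knockout ALDH- replicate 4, with a gap of 0.715 of the range. The log2 ratio of Rptor to Rictor was -0.4798 in knockout ALDH+ replicate 5, with a gap of 0.718 of the range.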

How the results depend on the processing

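The ALDH difference of Rps6kb2 (1.52 to 1.74) and Rps6kb1 (0.71 to 0.87) kept its sign with each library left out in turn. Of all genes, 674 were called between ALDH+ and ALDH- cells. The count was 185 without the cre driver in the model, 156 with Rip-cre libraries alone and 224 with the length trend removed, where 52.7% of calls were higher against 37.1%. With single libraries left out it ran from 3 (without control ALDH+ replicate 1) to 831 and was 361, 303 and 407 without control ALDH- replicate 1, 2 and 3. The 3 pathway calls became 1 with no filter on low values or with Rip-cre alone, 0 without the cre driver or with the length trend removed, and 0 to 5 with single libraries left out. The 13 genotype calls became 40 with no filter, 6 without the cre driver, and 1 (without control ALDH+ replicate 2) to 15 with single libraries left out. The 1095 cre calls ran from 697 (without control ALDH+ replicate 2) to 1266. The 0 calls for genotype by ALDH became 16 with no filter, 3 with Rip-cre alone and 0 to 3 with single libraries left out, and the 0 for cre by ALDH became 3 with no filter and 0 to 2.

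Single libraries moved the genotype by ALDH value of Rps6kb2 from -0.32 to 0.10, its cre by ALDH value from -0.10 to 0.36 and that of Rictor from -0.30 to 0.17. The genotype difference of the Rps6kb2 to Rps6kb1 ratio was -0.78 with Rip-cre alone and -0.98 to -0.76 with single libraries left out, and its cre difference -0.13 to 0.10. For Eif4ebp1 to Eif4ebp2 the genotype difference was 0.45 with Rip-cre alone (exact permutation p = 0.025, adjusted p = 0.1) and -0.22 to 0.24, and the cre difference -0.047 to 0.48. For Tsc1 to Tsc2 the genotype difference was 0.026 with Rip-cre alone. The cause of these changes was not tested.

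What equal replicate numbers share is not stated. Deviations of the 6 equal-numbered pairs with 1 cre driver correlated at 0.092 to 0.406, so that not every pair was over 0.1, and at -0.24 in the pair with different drivers. As a hint from the data, 9 of 10 knockout libraries correlated best with their own number. The deviations were taken from group means with the cre driver left in, so that part of this match can come from a shared driver. With only 2 control ALDH+ libraries, their deviations mirror each other, so that the correlations of the control pairs are not separate evidence. With the number as a replicate block the ALDH calls were 22, and 262 with the block within cre driver. Pathway calls were 0 under both. The genotype and cre driver tests and the partner ratios were not repeated with a block, so that their p-values do not allow for such pairs. The block within cre driver gave 1 cre by ALDH call and 0.10 for the genotype by ALDH value of Rps6kb2. In simulated data 56% of genes changed by 1 on the log2 scale and 95% of those changed by 2 were recovered between ALDH+ and ALDH- cells. There 200 of 11253 genes were changed, with noise drawn separately for each gene and library. Length trends and deviations shared between libraries were not simulated, so that recovery in the real libraries may differ. Rps6kb2 rested on as few as 47 fragments in a library.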
